A study of Homo sapiens with 6 samples.

Results

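Claudins and the other core genes of tight junctions were examined in MDA-MB-231 cells silenced for NEK2. The 9 members were CLDN1, CLDN3, CLDN4, CLDN7, CLDN12, OCLN, TJP1, F11R and CGN, each found by its symbol among the 74852 genes listed in the deposited table. MDA-MB-231 is an established human cell line of TNBC whose phenotype is mesenchymal. Cells were transfected with a pool of control siRNAs (si-CTRL) or a NEK2-targeting siRNA pool (si-NEK2), with no other treatment in either group, and polyA RNA of 3 samples per group was sequenced. The sample records place the harvest 24 h after the second of 2 transfections, whereas the methods of the study give another interval. Each group rested on 1 pool of siRNAs, so that effects of silencing NEK2 and of the pool itself cannot be told apart. The sources used here do not state whether the samples were separate cultures or whether both groups were prepared in 1 batch, so that p-values measure the spread between these samples, which may be technical.

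Tight junctions seal the space between neighbouring epithelial cells near their apical side. Claudins form the strands that close or selectively open this space to ions, and occludin and the junctional adhesion molecules join them in the membrane. On the cytoplasmic side, the plaque proteins ZO-1 and cingulin tie the strands to actin. Breast cancer cells with a mesenchymal phenotype are known for low levels of CLDN3, CLDN4 and CLDN7, and repressors that bind E-boxes, such as SNAI2, ZEB1 and ZEB2, are known regulators of tight junction genes.

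In si-NEK2 cells the members differed from si-CTRL cells in both directions. CLDN1 fell to 27.2% of its si-CTRL level, and the claudins CLDN4 and CLDN12 fell to 60.0% and 64.9%. OCLN, which encodes occludin, rose to 152%, and the row that holds F11R, which encodes the junctional adhesion molecule JAM-A, rose to 169%. TJP1, which encodes ZO-1, stood at 123% and CGN, which encodes cingulin, at 114%, both short of the fold change required. CLDN3 and CLDN7 had at most 18 and 8 reads in any library.

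Short stretches of the promoters of the members are shown first, since they hold the motifs that the known regulators of these genes and of other promoters bind. RefSeq promoters (GRCh38.p14) were matched by symbol for 8 of the 9 members, in 13 windows because some genes have several start sites, and F11R was not in the promoter table. The 250 bases before each start site were searched on both strands for the E-box CAGGTG or CACCTG, the AP-1 site TGACTCA or TGAGTCA and the GC box GGGCGG or CCGCCC. Over all 35116 promoter windows, 17.5% held an E-box, 4.20% an AP-1 site and 42.6% a GC box. Each sequence below has 30 bases and is written 5′ to 3′ on the strand of its gene, with the motif in capitals.

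CLDN1, the member with the largest change, is shown with both of its GC boxes, which began 88 and 40 bases before the start site, at chr3:190322517-190322546 and chr3:190322469-190322498 on the minus strand. Its window held no E-box and no AP-1 site.
CLDN1 GC box 1: cctctcggtgagCCGCCCtgaaaccgccag
CLDN1 GC box 2: cggggctgaggcGGGCGGagctgctttaaa

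CLDN4 is shown because it alone among the 13 windows held an AP-1 site, 161 bases before the start, at chr7:73830823-73830852 on the plus strand.
CLDN4 AP-1 site: gagactggatagTGACTCAgggacccgggg

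CLDN7 is shown because 4 of the 7 E-boxes of the members stood before its second start site. They began 174, 135, 20 and 9 bases before the start, at chr17:7262635-7262664, chr17:7262596-7262625 and, for the last pair, chr17:7262481-7262510 on the minus strand.
CLDN7 E-box 1: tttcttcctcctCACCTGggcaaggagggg
CLDN7 E-box 2: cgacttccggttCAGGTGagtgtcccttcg
CLDN7 E-boxes 3 and 4: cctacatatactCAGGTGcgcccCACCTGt

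OCLN and TJP1 are shown as the other members with an E-box in at least 1 window. The OCLN stretch lies at chr5:69492502-69492531 on the plus strand with the motif 33 bases before the first start site. The TJP1 stretch lies at chr15:29969120-29969149 on the minus strand with the motif 88 bases before the first start site.
OCLN E-box: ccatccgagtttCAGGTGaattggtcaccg
TJP1 E-box: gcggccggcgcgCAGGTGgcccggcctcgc

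E-boxes were thus found for 3 of the 8 members matched (CLDN7, OCLN and TJP1) and in 4 of the 13 windows. GC boxes were found for 7 of the 8 members, with 20 matches in 9 windows, of which a pair overlapped in CGN. Counted by gene, 20.6% of the 27305 genes with a promoter window held an E-box in at least 1 window and 46.2% held a GC box. The window of CLDN12 held none of the 3 motifs. A match is a string of letters in a window, and binding was not measured here.

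**Figure D1:**
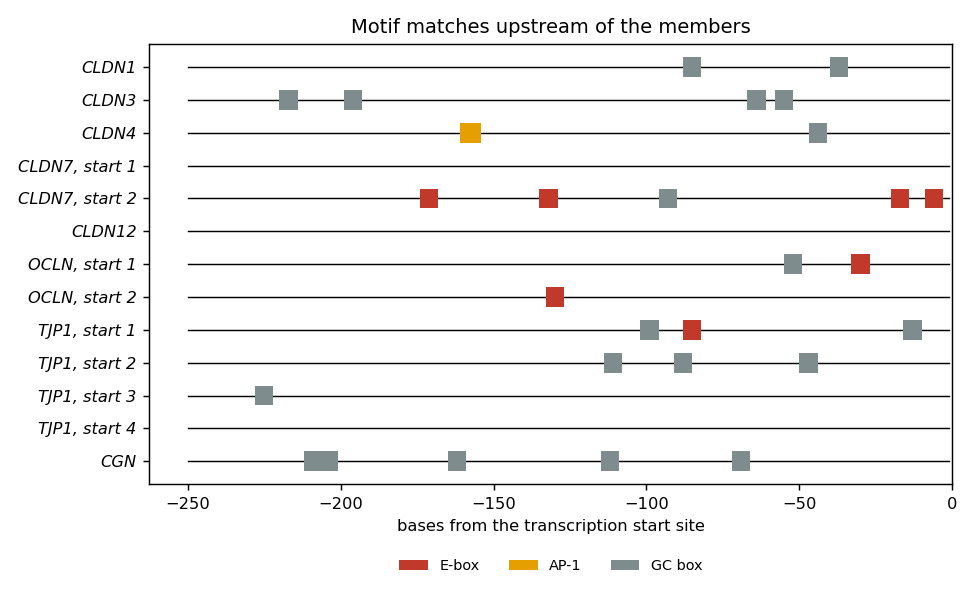
Positions of motif matches in the 250 bases before each start site of the 8 members matched. The x axis gives the distance from the start site in bases, each line is 1 window and each mark is 1 match of an E-box, an AP-1 site or a GC box. The E-boxes lie in the windows of CLDN7, OCLN and TJP1, and the single AP-1 site lies in that of CLDN4.

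The libraries held between 52625492 and 87454509 reads on genes, and the within-group libraries differed beyond sampling noise. The groups separated on the first principal component (61.7% of the variance), whereas si-CTRL replicate 1 stood apart on the second (16.2%). Values are normalized counts, that is reads divided by the size factor of the library, and 1 read was worth between 0.818 and 1.25 of them. The 18717 genes that averaged 10 or more normalized counts entered the limma fit as log2(value + 1), a scale on which changes of genes at few reads come out smaller. A gene was called regulated when it differed at least 1.5-fold with an unadjusted p of at most 0.05, and adjusted p-values are given beside each value. NEK2 fell from 3438 ± 229 to 344.9 ± 54.4 normalized counts (SD, n = 3), with a log2 fold change of -3.32 (SE 0.12, limma with Benjamini-Hochberg adjustment, adjusted p = 1.86e-06). VIM and the keratins KRT8 and KRT18 were high in all libraries, whereas the hormone receptor genes ESR1 and PGR had at most 16 and 2 reads. The receptor gene ERBB2 was present at 2822 ± 544 and 4020 ± 80.8 normalized counts in si-CTRL and si-NEK2 cells, and CDH2, the regulated marker, rose from 24247 ± 2412 to 38186 ± 1929 (SD, n = 3), with a log2 fold change of 0.66 (limma with Benjamini-Hochberg adjustment, adjusted p = 0.000346). The epithelial markers EPCAM and CDH1 had at most 14 and 6 reads, the leukocyte marker PTPRC at most 31 and the endothelial marker PECAM1 at most 15.

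Of the 9 members, 7 passed the filter on low values and 5 of these were regulated, whereas 22.5% of all tested genes were. Of the members, 2 were higher after NEK2 silencing (8.23% of all tested genes) and 3 were lower (14.3% of all tested genes). An adjusted p of at most 0.05 in limma was reached by 6 members and by 43.1% of all tested genes. The si-CTRL and si-NEK2 libraries did not overlap for 6 members, as for 55% of all tested genes. The median log2 fold change was 0.19 over the 7 members tested and 0.01 over all tested genes. The split over all tested genes, 1541 higher and 2672 lower, moved with the scaling, to 942 higher and 3474 lower when libraries were set to equal totals, which shifted the median of all genes to -0.11. No member tested changed the sign of its difference under any alternative, and the same 5 members were regulated without si-CTRL replicate 1.

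**Figure D2:**
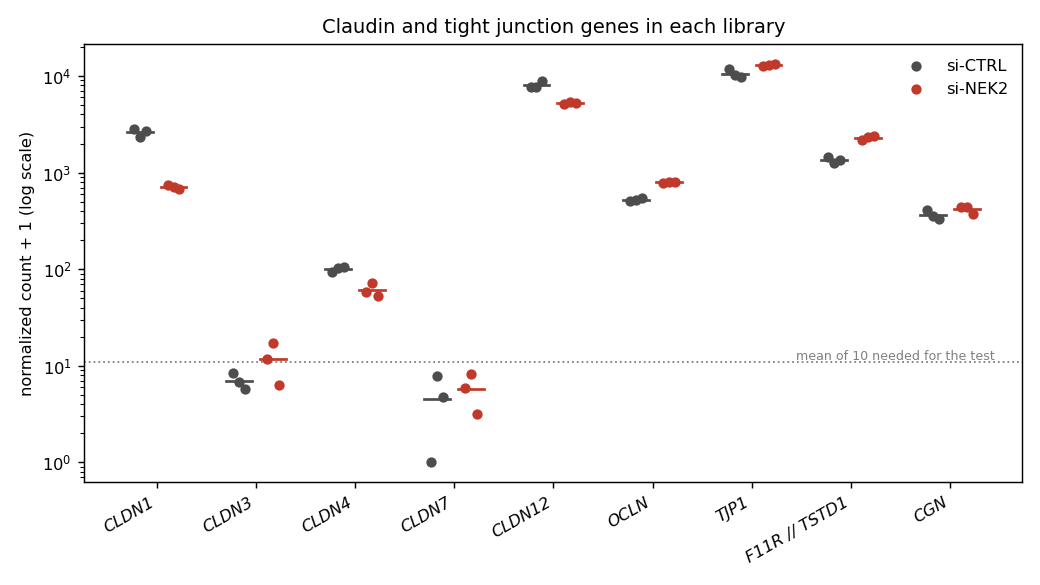
Level of each of the 9 members in the 6 libraries, as normalized count plus 1 on a log axis, with si-CTRL and si-NEK2 as separate points and the dotted line at the mean of 10 required for a test. CLDN1 shows the widest gap between the groups, OCLN and the F11R row lie higher in all si-NEK2 libraries, and CLDN3 and CLDN7 lie near the bottom of the axis.

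Among the claudins, CLDN1 was the member with the largest change. CLDN1 (GSHG0022318, chr3:190023490-190040235, hg19) encodes a strand-forming claudin that tightens the barrier of epithelia. Its normalized counts were 2795, 2318 and 2699.9 in si-CTRL replicates 1 to 3 and 748, 704 and 676 in si-NEK2 replicates 1 to 3. Every si-NEK2 library was thus far below every si-CTRL library, and the si-NEK2 libraries lay close together. The mean fell from 2604 ± 252 to 709 ± 36.1 (SD, n = 3), a log2 fold change of -1.87 (SE 0.09, 95% interval -2.08 to -1.66) and a 3.66-fold decrease (limma with Benjamini-Hochberg adjustment, adjusted p = 4.58e-06). In RNA of whole cultures, fewer cells with the transcript and less of it per cell cannot be told apart. CLDN1 alone among the members passed a fold change of 2.

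CLDN12 was the most abundant of the claudin members and fell less. CLDN12 (GSHG0027508, chr7:90032648-90045266, hg19) encodes a claudin known for paracellular calcium transport in the gut. Its normalized counts were 7771, 7704 and 8860.1 in si-CTRL replicates 1 to 3 and 5160.5, 5429 and 5196 in si-NEK2 replicates 1 to 3. The groups did not overlap, and si-CTRL replicate 3 stood above the other two. The mean fell from 8112 ± 649 to 5262 ± 146 (SD, n = 3), a log2 fold change of -0.62 (SE 0.07, 95% interval -0.79 to -0.46, limma with Benjamini-Hochberg adjustment, adjusted p = 0.000257). The 1.54-fold decrease was near the threshold, and without si-CTRL replicate 3 the log2 fold change of -0.56 no longer passed it, with a limma adjusted p of 0.00103.

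CLDN4 was present at a low level and fell further. CLDN4 (GSHG0027439, chr7:73242074-73247023, hg19) encodes a claudin of many epithelia that limits the passage of sodium. It had normalized counts of 92.5, 102.7 and 103.6 in the si-CTRL libraries and of 56.5, 70.5 and 52.3 in the si-NEK2 libraries. All si-NEK2 libraries lay below the si-CTRL libraries, although each value rested on only 49 to 109 reads. The mean fell from 99.6 ± 6.17 to 59.7 ± 9.54 (SD, n = 3), a log2 fold change of -0.74 (SE 0.18, 95% interval -1.13 to -0.34, limma with Benjamini-Hochberg adjustment, adjusted p = 0.00893). With quantile normalization the log2 fold change was -0.52, below the fold change required.

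CLDN3 and CLDN7 were close to the limit of detection. CLDN3 (GSHG0028271, chr7:73183328-73184970, hg19) lies 57103 bases from CLDN4 and encodes a sealing claudin. It had 6, 6 and 5 reads in the si-CTRL libraries and 13, 18 and 5 reads in the si-NEK2 libraries, so that the groups overlapped. Its mean of 8.38 normalized counts was below the filter, and in a fit of all genes without the filter the log2 fold change was 0.64 with an interval from -0.40 to 1.68 (limma with Benjamini-Hochberg adjustment, adjusted p = 0.41). A difference was not detectable at this depth.

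CLDN7 (GSHG0013047, chr17:7163223-7166512, hg19) encodes a claudin that is also found along the lateral membrane. It had 0, 7 and 4 reads in the si-CTRL libraries and 6, 8 and 2 reads in the si-NEK2 libraries. The groups overlapped, and the 0 of si-CTRL replicate 1 allows up to 3 reads. The mean was 4.14 normalized counts, and without the filter the log2 fold change was 0.68 with an interval from -0.996 to 2.35 (limma with Benjamini-Hochberg adjustment, adjusted p = 0.608). The row of CLDN7 overlaps that of ELP5, a gene with a mean of 3013 normalized counts, and whether reads were assigned by strand is not given in the sources used here, so that the few reads of CLDN7 are uncertain.

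OCLN, the gene of occludin, rose while CLDN1, CLDN4 and CLDN12 fell. OCLN (GSHG0023995, chr5:68788119-68853931, hg19) encodes a membrane protein with 4 passes that is built into claudin strands. Its normalized counts were 509.9, 514.3 and 540.9 in si-CTRL replicates 1 to 3 and 784.8, 793.5 and 797.0 in si-NEK2 replicates 1 to 3. The libraries of each group lay close together and the groups were well apart. The mean rose from 521.7 ± 16.8 to 791.8 ± 6.28 (SD, n = 3), a log2 fold change of 0.60 (SE 0.08, 95% interval 0.42 to 0.78, limma with Benjamini-Hochberg adjustment, adjusted p = 0.000502). The 1.52-fold increase was near the threshold, and it fell below it with upper quartile scaling (log2 fold change 0.54) and with equal totals (0.47), which also lowered all genes. The annotation holds the unprocessed pseudogene OCLNP1, and how the counting treated reads that fit both is not given in the sources used here.

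F11R encodes JAM-A, an immunoglobulin-like adhesion molecule that helps to place polarity proteins at new junctions. The table gives F11R and TSTD1 as 1 row (GSHG0002669, chr1:160965001-161008784, hg19), so that its reads cannot be divided between the genes and its values are uncertain for F11R. The normalized count of the row was 1439.8, 1263 and 1362 across si-CTRL replicates 1 to 3 and 2164.5, 2322 and 2388 across si-NEK2 replicates 1 to 3. All si-NEK2 libraries stood above the si-CTRL libraries. The mean rose from 1355 ± 88.6 to 2291 ± 115 (SD, n = 3), a log2 fold change of 0.76 (SE 0.08, 95% interval 0.58 to 0.94) and a 1.69-fold increase (limma with Benjamini-Hochberg adjustment, adjusted p = 0.000151).

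The plaque members moved less. TJP1 (GSHG0010254, chr15:29991572-30546711, hg19) encodes the scaffold ZO-1, which binds claudins and occludin. Its row spans a long region and overlaps 5 other rows with a mean of at least 1, whose summed mean was 1.52% of that of TJP1. Whether the row holds reads from outside TJP1 is not given in the sources used here, so that its level per kilobase is uncertain. TJP1 was tested on this row. It had normalized counts of 11788, 10194.9 and 9668 in the si-CTRL libraries and of 12606.5, 13087 and 13345 in the si-NEK2 libraries. The groups did not overlap, and si-CTRL replicate 1 was nearest to the si-NEK2 libraries. The means were 10550.5 ± 1104 and 13013 ± 375 (SD, n = 3), with a log2 fold change of 0.31 (SE 0.08, 95% interval 0.12 to 0.49, limma with Benjamini-Hochberg adjustment, adjusted p = 0.0145), so that the 1.24-fold difference did not count as regulated. The limma adjusted p was 0.108 with equal totals and 0.127 with quantile normalization. It was 0.000144 without si-CTRL replicate 1, and 0.0515, 0.059 and 0.0545 without si-CTRL replicate 3, si-NEK2 replicate 2 and si-NEK2 replicate 3.

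CGN (GSHG0000959, chr1:151482986-151511165, hg19) encodes cingulin, a plaque protein that binds ZO-1 and actomyosin. It had normalized counts of 407, 357 and 329.9 in the si-CTRL libraries and of 435, 439 and 371 in the si-NEK2 libraries. The groups overlapped, since si-CTRL replicate 1 exceeded si-NEK2 replicate 3. The means were 364.9 ± 39.3 and 415 ± 38.2 (SD, n = 3), with a log2 fold change of 0.19 and an interval from -0.08 to 0.46 (limma with Benjamini-Hochberg adjustment, adjusted p = 0.241). With quantile normalization it was 0.35 (limma adjusted p = 0.0453), still short of the fold change required.

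**Figure D3:**
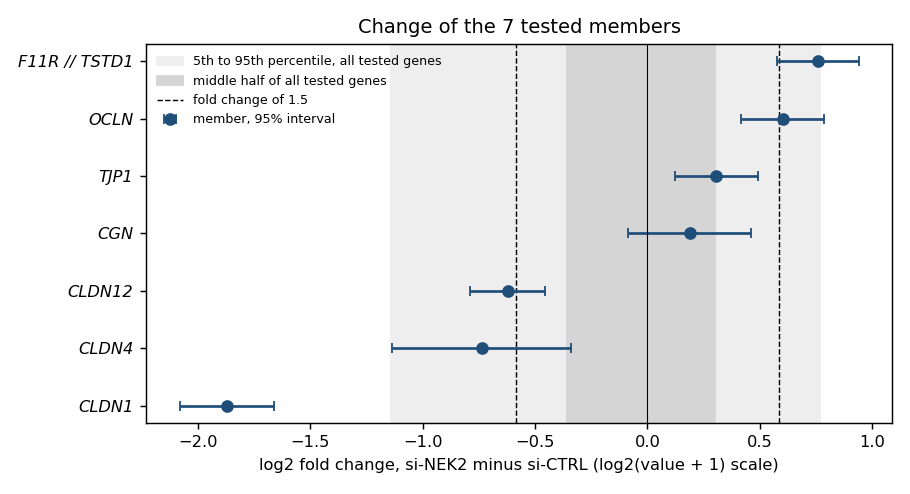
Log2 fold change (si-NEK2 minus si-CTRL) of the 7 members tested with its 95% interval from limma, over grey bands for the spread of all tested genes, whose middle lies between -0.36 and 0.30 (quartiles). CLDN1 lies at -1.87, beyond the outer band that begins at -1.14 (5th percentile), whereas the F11R row at 0.76 reaches close to the 95th percentile of 0.77.

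Levels were compared between members per kilobase of exon, since longer transcripts gather more reads. In si-CTRL cells the order was CLDN12 (2273 ± 182 normalized counts per kilobase, SD, n = 3), TJP1 (1088 ± 114), CLDN1 (748 ± 72.5), the F11R row (243 ± 15.9), OCLN (79.7 ± 2.56), CGN (71.7 ± 7.72), CLDN4 (23.7 ± 1.47), CLDN3 (4.73 ± 1.09) and CLDN7 (1.71 ± 1.65). Only OCLN and CGN were neighbours whose libraries overlapped among the 7 members with more reads. In si-NEK2 cells CLDN12 (1474 ± 40.8 per kilobase) and TJP1 (1342 ± 38.7) drew closer. CLDN1 (204 ± 10.4) and the F11R row (411 ± 20.6) exchanged their places, and OCLN (120.9 ± 0.96) no longer overlapped with CGN (81.6 ± 7.49). CLDN4 stood at 14.2 ± 2.27 per kilobase, CLDN3 at 8.44 ± 4.29 and CLDN7 at 2.31 ± 1.24, and the si-NEK2 libraries of CLDN4 and CLDN3 overlapped.

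**Figure D4:**
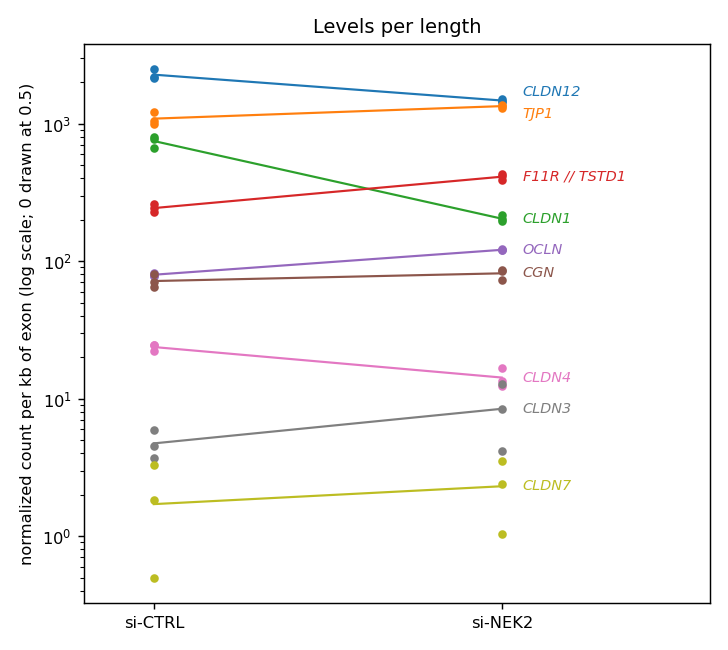
Level of each member in the si-CTRL and si-NEK2 libraries, in normalized counts per kilobase of exon on a log axis, with 1 point per library (the 0 of CLDN7 is drawn at the bottom) and a line that joins the group means (n = 3). The line of CLDN1 falls from 748 to 204 and crosses that of the F11R row, which climbs from 243 to 411, whereas CLDN12 stays the highest member.

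The make-up of the claudin members differed between the groups. CLDN1 gave 26.7%, 23.3% and 23.6% of the summed level per kilobase of the 5 claudin members in the si-CTRL libraries and 12.8%, 11.5% and 11.7% in the si-NEK2 libraries. CLDN12 gave 72.4%, 75.6% and 75.5% in the si-CTRL libraries and 85.8%, 86.6% and 87.3% in the si-NEK2 libraries. In every library both members together thus gave nearly all of the sum over the members. The row shared by CLDN11, which is no member, and MIR6828 averaged 31258 and 22199 normalized counts in si-CTRL and si-NEK2 cells, above CLDN12. This row spans chr3:170136653-170578169 (hg19), a region longer than CLDN11 itself, so that its level is uncertain for CLDN11 and the shares hold among the 5 members only.

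Ratios within a library do not depend on its scaling. The normalized count of CLDN12 over that of CLDN1 was 2.78, 3.32 and 3.28 in the si-CTRL libraries and 6.90, 7.71 and 7.68 in the si-NEK2 libraries, a log2 difference of 1.25. OCLN over CLDN1 went from 0.182, 0.222 and 0.200 to 1.05, 1.13 and 1.18, although per kilobase CLDN1 stayed above OCLN in every library. The F11R row over CLDN1 went from 0.515, 0.545 and 0.505 to 2.89, 3.30 and 3.53, and TJP1 over CLDN1 from 4.22, 4.40 and 3.58 to 16.9, 18.6 and 19.7. All 4 ratios share CLDN1, the member with the largest fall, as their denominator, so that they are given as a description and not as separate results.

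Other genes of the junction, genes of cell polarity and regulators and partners of claudins were counted in 5 lists of 76 genes. Of these, 56 were tested and 16 regulated (28.6% of those tested, 7 higher and 9 lower), beside 22.5% of all tested genes. Their median log2 fold change was -0.10. Of the 18 other claudins, 6 were tested and all 6 had a log2 fold change below 0, with a median of -0.41. Over all tested genes 51.0% were above 0. With quantile normalization 2 of the 6 claudins were above 0. In the fits without si-CTRL replicate 1 or 2, or without si-NEK2 replicate 1 or 2, 1 of the 6 was above 0. Without the row shared by CLDN11 and MIR6828 the median of the other 5 was -0.33. CLDN6 and CLDN16, the regulated ones, had means below 50 and are named after their values were seen. CLDN6 had 10.0, 38.7 and 26.6 normalized counts in the si-CTRL libraries and 4.91, 11.7 and 11.7 in the si-NEK2 libraries, which overlapped, with a limma adjusted p of 0.0973. CLDN16, a claudin of renal magnesium transport that lies 65425 bases from CLDN1, had 28.7, 29.1 and 38.0 in the si-CTRL libraries and 7.37, 28.0 and 13.9 in the si-NEK2 libraries, with a limma adjusted p of 0.0726. No other claudin was regulated in limma without si-CTRL replicate 2 or 3 or without si-NEK2 replicate 1 or 3. Another 5 claudins were at 0 in all libraries.

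Of 12 other membrane proteins, 9 were tested and 3 were lower, with none higher, beside 14.3% lower and 8.23% higher over all tested genes. JAM2, a relative of F11R, fell from 336 ± 54.8 to 172 ± 8.59 (SD, n = 3), a log2 fold change of -0.95 (limma with Benjamini-Hochberg adjustment, adjusted p = 0.000725), opposite to the F11R row. MARVELD2, which encodes the occludin relative tricellulin, fell from 187 ± 27.9 to 120.1 ± 11.5, a log2 fold change of -0.63 (limma adjusted p = 0.0102), opposite to OCLN. Without si-CTRL replicate 1 the value of MARVELD2 was -0.51 and without si-NEK2 replicate 2 it was -0.56, so that neither passed the threshold, and with quantile normalization it was -0.45. The remaining one was IGSF5, named after its values were seen, with a mean below 50 and a limma adjusted p of 0.0437.

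Of 19 other plaque proteins, all were tested, 2 were higher and 1 was lower. Among all tested genes 8.23% were higher and 14.3% lower, so that these counts do not set the plaque list apart. TJP3, which encodes ZO-3, rose from 33.2 ± 7.47 to 69.5 ± 11.3 (SD, n = 3), a log2 fold change of 1.05 (limma with Benjamini-Hochberg adjustment, adjusted p = 0.00614). The scaffold gene MAGI3 rose from 1505 ± 94.9 to 2318 ± 90.6, a log2 fold change of 0.62 (limma adjusted p = 0.000318). AMOTL1, a relative of angiomotin, fell from 668 ± 111 to 405 ± 46.0, a log2 fold change of -0.71 (limma adjusted p = 0.00322). Without si-CTRL replicate 1 MAGI3 was at 0.58 and AMOTL1 at -0.58, just short of the threshold. MAGI3 was also short of it with upper quartile scaling (0.56) and with equal totals (0.50).

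Of 15 genes of polarity complexes, 14 were tested, 4 rose and none fell. Of the 14 tested, 13 had a log2 fold change above 0 (median 0.27). Over all tested genes 8.23% were higher and 51.0% had a log2 fold change above 0. With upper quartile scaling or equal totals 10 of the 14 were above 0, and 4 genes were again regulated and higher. PARD6A and PARD6B, adaptors of the Par complex, rose from 68.6 ± 4.73 to 223 ± 32.6 and from 352 ± 73.2 to 727.5 ± 29.7 (SD, n = 3), with log2 fold changes of 1.68 and 1.07 (limma with Benjamini-Hochberg adjustment, adjusted p = 7.53e-05 and 0.000655). PATJ, a scaffold of the Crumbs complex, rose from 851 ± 84.5 to 1655 ± 103, a log2 fold change of 0.96 (limma adjusted p = 0.000106). LLGL2, a gene of basolateral polarity, rose from 266 ± 31.4 to 437 ± 43.7, a log2 fold change of 0.71 (limma adjusted p = 0.0022).

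Of 12 regulators and partners of claudins, 8 were tested, 3 were lower and 1 was higher. Over all tested genes, 14.3% were lower and 8.23% higher. The E-box repressor genes ZEB2 and ZEB1 fell from 2410 ± 587 to 785 ± 128 and from 5146 ± 762 to 2899.7 ± 69.9 (SD, n = 3), with log2 fold changes of -1.60 and -0.82 (limma with Benjamini-Hochberg adjustment, adjusted p = 0.000173 and 0.00034). SNAI2, which encodes the repressor Slug, fell from 1234 ± 320 to 739 ± 29.8, a log2 fold change of -0.71 (limma adjusted p = 0.00682). Without si-CTRL replicate 1 the value of SNAI2 was -0.51, short of the threshold. SNAI1 and TWIST1, of the same list, were not regulated, with log2 fold changes of -0.006 and -0.12 (limma adjusted p = 0.986 and 0.598). Their signs were not stable. Of the 8 genes tested, 3 were above 0 in the main fit and 5 with quantile normalization, where ZEB2, ZEB1 and SNAI2 stayed below 0. Whether the changes of ZEB2, ZEB1 and SNAI2 bear on the members with an E-box was not tested.

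**Figure D5:**
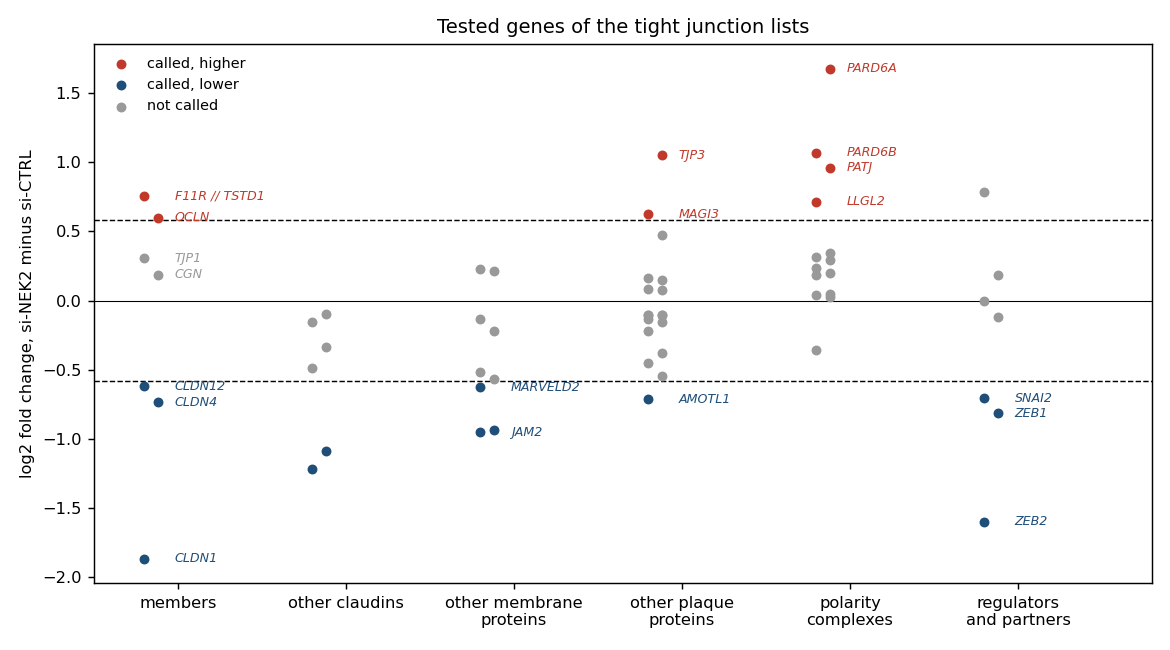
Log2 fold change (si-NEK2 minus si-CTRL) of tested genes in the members and the 5 other lists, 1 point per gene with 2 genes not shown, in red where higher, blue where lower and grey where not regulated, with dashed lines at a fold change of 1.5. The 6 other claudins lie below 0 (4 of them with quantile normalization), 13 of 14 polarity genes lie above 0 (10 with equal totals), and the members lie on both sides.

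The genes nearest to CLDN1 in profile were sought among 12915 genes with a symbol and a mean of at least 50, by the root mean square difference of log2(value + 1) from the si-CTRL mean over the 6 libraries. C1QTNF1, which encodes a secreted protein related to complement C1q, was nearest at 0.08 and went from 431 ± 21.4 to 122 ± 14.4 normalized counts (SD, n = 3). The row shared by MIR7844 and TMCC3 differed by 0.08 and the long noncoding RNA FENDRR by 0.10. Their group means went from 246 to 66.9 and from 221 to 62.6. These 3 genes were chosen for this likeness, so that their fall is a description only.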

How the data were processed

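PolyA-enriched RNA of 3 si-CTRL and 3 si-NEK2 samples was sequenced. The authors deposited a gene signal (normalized count) for each library, that is reads on the gene divided by its DESeq2 size factor, with FAST DB annotation and hg19 coordinates. The submitters' processing notes name STAR 2.4.0, SAMtools, Picard, FastQC and DESeq2. The counter and its strand setting are not given in the sources used here. Values were whole multiples of 1 read (tolerance 0.01 reads) in 100% of cases, and no per-sample column was left unused (0). The members, lists and tests were chosen with earlier results of these data known.

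Genes with a mean of at least 10 were fitted with limma 3.58.1 (R 4.3.3, eBayes with a trend, pseudocount 1). The text names all members, regulated genes of the other lists with a mean of at least 50 (at most 5 per direction) and the 3 nearest profiles to CLDN1. Some genes are named outside this rule. SNAI1, TWIST1 and the row of CLDN11 were not regulated, and CLDN6, CLDN16 and IGSF5 had means below 50. For these the alternatives were not followed gene by gene. In the other lists, 2 genes are counted but not reported here by name. Exon lengths are unions of GENCODE exons. Alternatives were other pseudocounts, filters, thresholds and scalings, eBayes without a trend, a replicate block, leaving out each library, and edgeR 4.0.16 and DESeq2 1.42.0 on recovered reads. The scripts were tested on simulated data.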

Additional observations from a re-analysis of the deposited data

How the results depend on the processing

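None of the 7 members tested, NEK2 or the regulated genes named from the 5 other lists with a mean of at least 50 changed direction under any alternative run. This does not cover genes named there that were not regulated, such as SNAI1 and TWIST1. When a 2-fold change was required, 1637 genes were regulated instead of 4213, with 1 of the members (CLDN1) and 7 genes of the other lists. Quantile normalization gave CLDN4 a log2 fold change of -0.52, and OCLN was at 0.54 with upper quartile scaling and at 0.47 with equal totals, each below the threshold. Leaving out 1 library in turn gave between 4 and 5 regulated members, between 13 and 16 regulated genes of the other lists, and CLDN12 between -0.66 and -0.56, the last without si-CTRL replicate 3. Over these fits CLDN1 ranged from -1.95 to -1.82, CLDN4 from -0.86 to -0.65, OCLN from 0.59 to 0.63, the F11R row from 0.71 to 0.80, TJP1 from 0.25 to 0.39 and CGN from 0.12 to 0.27. The share of higher genes among those regulated was 36.6%, and it was 21.3% with equal totals, 28.1% with upper quartile scaling and 45.9% with quantile normalization. On recovered reads edgeR called 4205 genes and DESeq2 4039, with the same 5 members, and DESeq2 gave no adjusted p for 5 genes.

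The deviations of same-numbered libraries correlated at -0.09, 0.05 and -0.15, where all 9 pairs ranged from -0.15 to 0.18. No shared effect of the replicate number was thus seen, but whether samples were prepared in pairs cannot be told from these values. With the replicate number as a block, 5 members and 4084 genes were regulated, and CLDN4 had a limma adjusted p of 0.0239. Counts near 0 limit CLDN3 and CLDN7, for which only large differences could have been seen.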
